A study of Homo sapiens with 20 samples.

Results

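This report covers the transcripts of 10 genes of the cytosolic and endoplasmic reticulum heat shock system in MeRIP-seq (methylated RNA immunoprecipitation followed by sequencing) of bladder cancer cells. They are the transcription factor HSF1, the HSP70 chaperones HSPA1A, HSPA1B, HSPA8 and HSPA5, the HSP110 HSPH1, the HSP90s HSP90AA1 and HSP90AB1, the J-domain co-chaperone DNAJB1 and the nucleotide exchange co-chaperone BAG3. They are 10 of 20046 protein-coding genes, chosen by name. A peak was given to a gene when its summit lay in an exon of that gene, which gave 104 of 231465 called peaks, in 19 of 43676 merged regions. The study compared T24, a bladder cancer line that cisplatin still kills, with T24R2, a line made from T24 by serial exposure to cisplatin and kept in medium with the drug. Both were labelled wild type and were collected on day 3 of growth. RNA fragments carrying N6-methyladenosine (m6A) were enriched from total RNA with an anti-m6A antibody, giving 5 immunoprecipitated (IP) libraries and 5 input libraries without antibody for each line. T24R2 is a single derived line, so resistance, drug in the medium and drift of the line cannot be told apart, and the labels do not say whether the 5 replicates were separate cultures, so p-values measure only the spread between these libraries.

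Heat shock proteins bind unfolded chains and help them fold. J-domain proteins such as DNAJB1 bring clients to HSP70 and start its ATP hydrolysis, and nucleotide exchange factors such as BAG3 and HSPH1 reset it. HSP90 takes over clients at a late stage of folding, and HSF1 turns on transcription of most of these genes when proteins unfold. HSP70 transcripts of stressed cells are a known case of m6A in the 5′UTR, which has been linked to translation that does not need the cap. Most m6A in other mRNAs lies near stop codons and in long exons.

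The files are lists of peaks with a fold enrichment of IP over input, a −log10 q-value, a start, an end and a summit, and they hold no reads, so depth is unknown and no peak means only that none passed the caller's threshold. A peak list does not give RNA levels either, so a transcript with little RNA and a transcript with little m6A cannot be told apart. The study names as a further limit that MeRIP-seq cannot definitively separate m6A from N6,2′-O-dimethyladenosine (m6Am). The T24R2 lists were longer, with 22671 to 33120 peaks against 17203 to 22901 in T24, and T24R2 replicate 5 stood apart as the longest. Of the epithelial and mesenchymal markers, KRT7 had a summit in all 10 libraries, VIM in 5 T24 and 4 T24R2 libraries, and GATA3 in 5 T24 and 0 T24R2 libraries. KRT18 had one in 0 T24 and 2 T24R2 libraries, PPARG in 1 and 2, and UPK1A in 1 and 1. KRT5, KRT8, KRT19, KRT20, UPK2, UPK3A and TP63 had none in any library, and these lists cannot tell whether they are expressed.

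DNAJB1, BAG3 and HSPA5 carried a summit in every library of both lines. These 3 of 10 members stand beside 27.5% of all protein-coding genes, and 8 of 10 members had a summit in at least 1 library, beside 51.1%. HSP90AA1 had summits in 5 of 5 T24R2 libraries and 0 of 5 T24 libraries, HSPA8 in 5 and 1, HSPH1 in 2 and 0, HSP90AB1 in 1 and 0 and HSPA1A in 1 and 1. HSPA1B and HSF1 had none on the annotated chromosomes, but the HSPA1A summits lay in sequence shared with HSPA1B. With only peaks of at least 4-fold enrichment 4 members kept a summit, and with −log10 q of at least 10, or with the same 17203 peaks taken from each list, DNAJB1 alone kept one in every library.

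**Figure D1:**
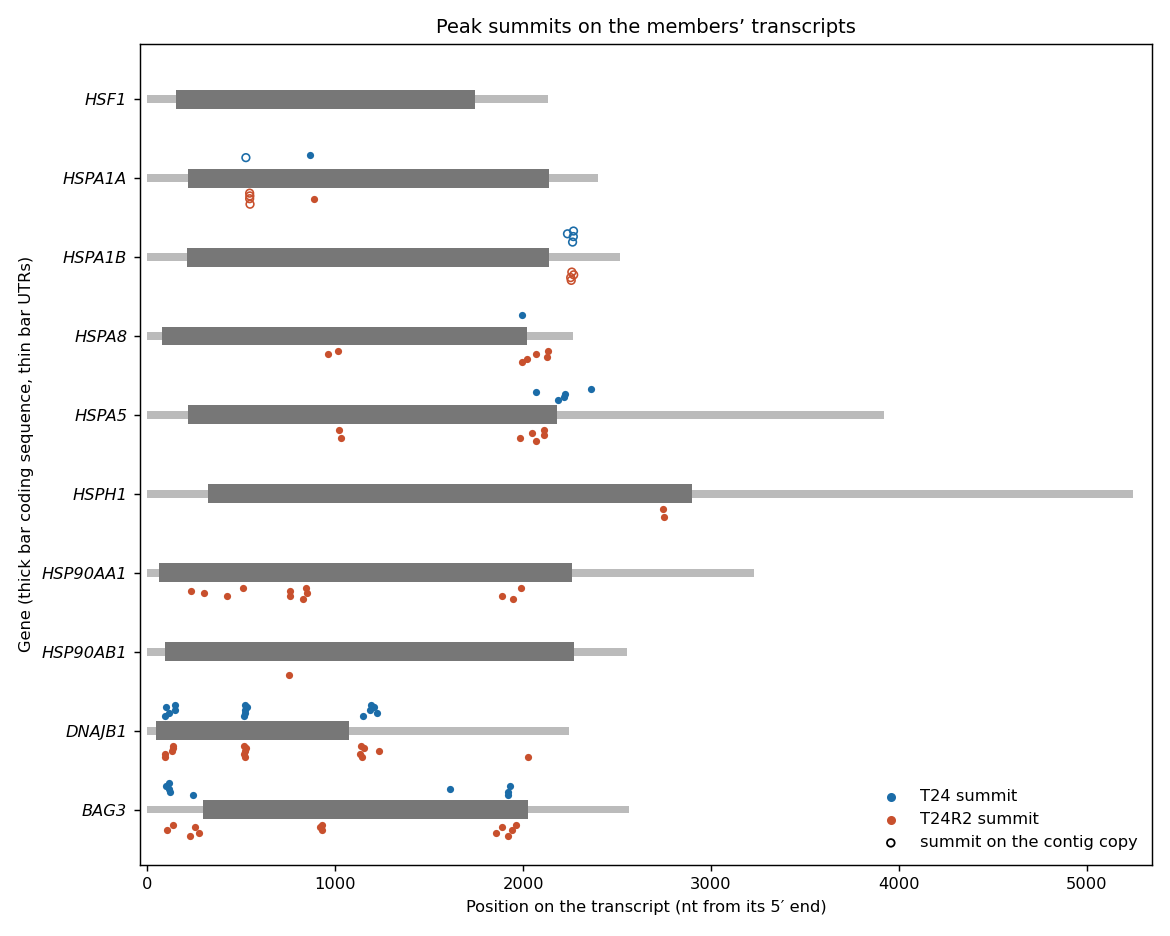
Positions of the peak summits along the transcript of each gene, in nucleotides from its 5′ end. The thick bar is the coding sequence and the thin bars are the UTRs. Filled points are summits on the chromosome, T24 in blue and T24R2 in orange, and open points are summits on the copy of the gene on an alternate contig. DNAJB1, BAG3 and HSPA5 carry points of both lines from all 10 libraries, and HSF1 carries none. The 14 DNAJB1 summits that lie off the chosen transcript are not drawn.

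Across the 19 member regions, 11 were called in more T24R2 than T24 libraries, 0 in more T24 libraries and 8 in equal numbers. Over all 43676 regions 52.6% were called in more T24R2 libraries, 19.6% in more T24 libraries and 27.9% in equal numbers. Member peaks were weak in fold enrichment, with a median at percentile 9.76 of their list against 48.7 for all peaks on protein-coding transcripts, but their median −log10 q was at percentile 48.3 against 58.0. On the transcripts chosen for each gene (MANE Select), 90 member peaks fell 11.1% in the 5′UTR, 67.8% in the coding sequence (CDS) and 21.1% in the 3′UTR, beside 7.11%, 60.4% and 32.5% of 145243 peaks over all protein-coding genes. The member shares differed by line. The mean CDS share of member summits was 53.7% ± 11.6 (SD over 5 libraries) in T24, below the 60.1% of all genes there, and 74.2% ± 3.48 in T24R2, above the 60.5% of all genes. The 5′UTR share was 16.4% ± 2.35 in T24 and 8.60% ± 1.16 in T24R2, and the 3′UTR share was 29.9% ± 9.63 and 17.2% ± 2.32. All 10 member summits in a 5′UTR were those of BAG3, in every library of both lines. T24R2 libraries held 12 to 15 member peaks and T24 libraries 6 to 9, so the same BAG3 summits made up a smaller share in T24R2. The 12 HSP90AA1 summits, all in the CDS, were in T24R2 only. HSPA5 had a 3′UTR summit in 4 T24 and 0 T24R2 libraries. The shares therefore do not show a shift of position across the members. Summits within 200 nt of the stop codon made up 36 of the 90 member peaks (40%) and 23.5% of all peaks. Those of the members came from a single region each of DNAJB1, HSPA5, BAG3, HSPA8 and HSPH1, counted again in each library that called it. The exon that held a member summit had a median length of 556 nt, against 1499 nt for all peaks.

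**Figure D2:**
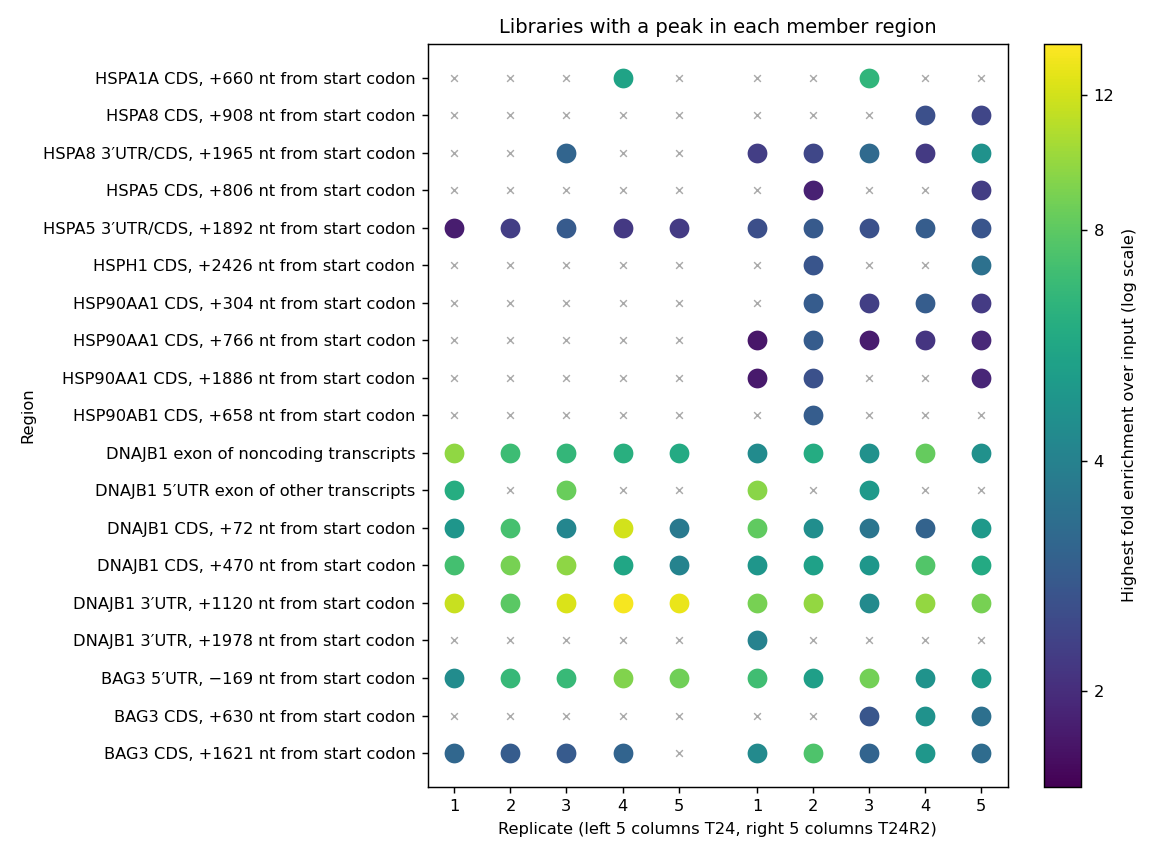
Libraries with a peak in each of the 19 member regions. Rows are regions, named by gene, part of the transcript and median summit distance from the start codon, and columns are the replicates of T24 (left 5) and T24R2 (right 5). Coloured points mark a called peak, with the colour giving its highest fold enrichment over input on a log scale, and grey crosses mark no peak. The 3 HSP90AA1 rows have crosses in all T24 columns, while 6 rows of HSPA5, DNAJB1 and BAG3 are filled in every column.

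HSF1, the master regulator, had no summit in any exon of any library. No list held any peak within 5000 bp of the gene, and the nearest peak of any library lay 23180 bp away. None of the 100-nt windows of its transcript recurred letter for letter elsewhere in the reference, near-identical copies were not examined, and the part of read mapping in the missing peaks was not tested.

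HSPA1A and HSPA1B are the stress-induced HSP70s, which lie next to each other in the MHC region of chromosome 6 and have nearly the same coding sequence. HSPA1A, a gene of 1 exon at chr6:31815543-31817946, had a CDS summit in T24 replicate 4 with 5.48-fold enrichment (percentile 31.0 of its list) and in T24R2 replicate 3 with 6.45-fold (percentile 51.5). HSPA1B (chr6:31827738-31830254) had no summit. Neither had a summit in its 5′UTR in any library, at 214 nt of 5′UTR in HSPA1A and 213 nt in HSPA1B. The coding sequences of both are 1926 nt long with 4 mismatches, an identity of 99.8%, and share an identical run of 1709 nt. Of the 100-nt windows of the HSPA1A transcript 72.4% recur elsewhere on the chromosomes and 100% recur somewhere in the reference once alternate contigs are counted, and the values for HSPA1B were 68.9% and 100%. The study kept uniquely mapped reads only, so a missing peak in these genes does not describe their m6A. For both HSPA1A peaks, windows over the summit recur elsewhere on the chromosomes, up to 100 of them. These peaks therefore cannot be told apart from peaks of HSPA1B.

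The lists also carry peaks on the alternate MHC contig chr6_GL000255v2_alt, which holds a copy of both genes and lies outside the annotation used for assigning peaks. The HSPA1B copy (3083570 to 3086086 on that contig) had a 3′UTR summit 99 to 132 nt past the first base of the stop codon in 4 of 5 T24 and 4 of 5 T24R2 libraries. Its fold enrichment was 7.24, 7.48, 8.22 and 5.62 in T24 replicates 1, 3, 4 and 5. In T24R2 it was 8.66, 10.4, 5.77 and 16.3 in replicates 2, 3, 4 and 5. The T24 mean was 7.14 ± 1.09 (SD over 4 libraries) and the T24R2 mean 10.3 ± 4.46, from overlapping values, and presence was equal (two-sided Fisher's exact test, p = 1.0). The HSPA1A copy (3071371 to 3073770) had a CDS summit 309 to 331 nt from the start codon in T24 replicate 3, with 4.99-fold enrichment, and in T24R2 replicates 1, 3, 4 and 5, with 3.53-, 4.2-, 4.06- and 3.45-fold, and presence in 1 against 4 libraries had an exact Fisher p of 0.206. With so much shared sequence, a peak on a copy cannot be told apart from a peak on the genes themselves. The 13 peaks of the copies lie in the CDS or the 3′UTR and none in the 5′UTR. With uniquely mapped reads only, a missing 5′UTR peak on the copies does not describe their m6A either.

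m6A is written mostly at the motif DRACH (D: not C; R: a purine; H: not G). The DRACH nearest the median summit of a region, found on the transcript strand of hg38, is shown in capitals with 12 nt on each side for the regions that the results turn on, in the order of their roles.
HSPA1B copy, 3′UTR, chr6_GL000255v2_alt:3085824-3085852, plus strand: aaagttaagttgTAACCtgatggtaatta
HSPA8, 3′UTR, chr11:123057678-123057706, minus strand: tccacacatttaAAACAtttgaaggacct
HSPA5, CDS, chr9:125236644-125236672, minus strand: ccaattatcagcAAACTctatggaagtgc
HSP90AA1, CDS, chr14:102084883-102084911, minus strand: gagtcggaagacAAACCtgaaattgaaga
DNAJB1, CDS of exon 1, chr19:14518235-14518263, minus strand: gcgctaccacccGGACAagaacaaggagc
DNAJB1, CDS of exon 2, chr19:14516810-14516838, minus strand: cttcaccaacgtGAACTttggccgctccc
DNAJB1, 3′UTR, chr19:14515849-14515877, minus strand: tctaccagttgtGGACCatgagagggtgg
BAG3, 5′UTR, chr10:119651484-119651512, plus strand: gaggctatttccAGACActtccacccctc
A DRACH lay within 50 nt of the median summit in 15 of 17 member regions on the chosen transcripts (88.2%), beside 89.1% of 23562 such windows over all protein-coding genes. The form GGACT was found in 1 member window (5.88%), beside 17.3% of all. DRACH letters are common, so a match is a description of the window and not a mapped site. The median summit was taken over both lines, so the HSPA5 stretch lies in the CDS although 4 of 5 T24 summits lay in the 3′UTR. The DRACH shown for BAG3 lies at −178 nt from the start codon. The BAG3 summits of T24 replicate 1 and T24R2 replicates 1, 2 and 4 lay further downstream, at −69 to −20 nt.

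HSPA8 is the constitutive HSP70 that carries out housekeeping folding. Its region over the stop codon and 3′UTR in the last exon (chr11:123057584-123057952) was called in T24 replicate 3 only and in all 5 T24R2 libraries. The fold enrichment was 3.09 in that T24 library and 2.26, 2.40, 3.21, 2.20 and 4.64 in T24R2 replicates 1 to 5. The single T24 value lies inside the T24R2 range. Summit positions counted from the first base of the stop codon, with negative values in the coding sequence, ran from −25 to 113 nt. Presence in 1 against 5 libraries had an exact Fisher p of 0.0476 (adjusted p = 0.517 over all regions), and 7.11% of all regions were called more often in T24R2 at an unadjusted exact p under 0.05. With −log10 q of at least 5 the counts were 0 and 5, and with equal list lengths they were 0 and 3. In 2 of the 6 peaks some 100-nt windows over the summit recur elsewhere in the genome. A second HSPA8 region, in the CDS of exon 5 (chr11:123059631-123059779), was called in T24R2 replicates 4 and 5 with 2.58- and 2.39-fold enrichment and in no T24 library (exact Fisher p = 0.444).

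HSPA5 encodes BiP, the HSP70 of the endoplasmic reticulum and a sensor of the unfolded protein response. Its region around the stop codon in exon 8 (chr9:125236379-125237115) was called in all 10 libraries, always with low fold enrichment. The values were 1.80, 2.25, 2.82, 2.16 and 2.22 in T24 replicates 1 to 5. In T24R2 they were 2.56, 2.80, 2.61, 2.88 and 2.7. T24R2 values lay above all T24 values but that of replicate 3, and all 10 stood at or below percentile 2.37 of their lists. After centring each library on its median, the log2 difference T24R2 minus T24 was 0.18 ± 0.17 (SE, limma adjusted p = 0.692, n = 5 and 5). It was 0.01 with quantile normalization and 0.09 without T24 replicate 1. The −log10 q values did not overlap, from 2.34 to 6.92 in T24 and from 7.70 to 19.9 in T24R2, which happened in 5.34% of the regions called in all 10 libraries. The limma test of log2 −log10 q gave a difference of 1.07 with an adjusted p of 0.156, and −log10 q grows with depth and list strength as well as with enrichment. With −log10 q of at least 5 the region was left in 2 T24 and 5 T24R2 libraries.

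The HSPA5 peak also differed in extent and summit between the lines, measures added after its values were seen. Summits lay at 7, 40, 41, −114 and 180 nt from the first base of the stop codon in T24 replicates 1 to 5. In T24R2 replicates 1 to 5 they lay at −109, −196, −70, −132 and −69 nt. T24 replicate 4 was the only T24 library with its summit in the coding sequence, and all T24R2 summits were there. The mean position was 30.8 ± 105 nt (SD) in T24 and −115 ± 52.5 nt in T24R2, so T24R2 summits lay 146 nt nearer the start codon (difference −146 nt, exact permutation p = 0.0317, adjusted p = 0.962). An exact p under 0.05 was found in 2.86% of 4644 regions with a summit in each library, none passed adjustment, and the median difference over them was −10.8 nt. Without T24 replicate 5, T24R2 replicate 2 or T24R2 replicate 4 the exact permutation p was 0.0556, and the difference ranged from −182 to −109 nt as single libraries were left out. Peak widths were 142, 163, 415, 435 and 156 bp in T24 and 670, 723, 438, 718 and 446 bp in T24R2, so every T24R2 peak was wider (difference 337 bp, exact permutation p = 0.00794, the smallest that 5 against 5 allows, adjusted p = 0.0692). Such separation was found in 10.8% of the regions called in all 10 libraries, whose median width difference was 80.2 bp in the same direction. The upstream ends lay between −521 and −250 nt from the stop codon in T24R2 and between −250 and 27 nt in T24, while all 10 downstream ends lay between 118 and 215 nt. In 1 of the 10 peaks some windows over the summit recur elsewhere in the genome. Stretches of chr1 and chr4 that share windows with the HSPA5 transcript each held 4 peaks, in 1 T24 and 3 T24R2 libraries. Only uniquely mapped reads were kept, and the part of shared sequence in these summits and widths was not tested. HSPA5 also had a CDS peak in exon 5 (chr9:125238998-125239327) in T24R2 replicates 2 and 5, with 1.84- and 2.23-fold enrichment, and in no T24 library.

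**Figure D3:**
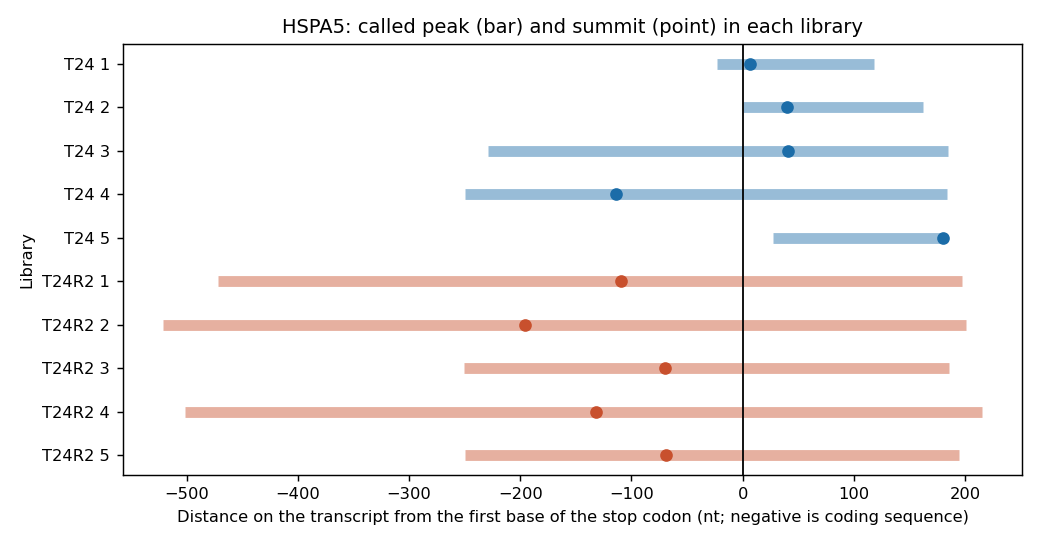
Extent (bar) and summit (point) of the called HSPA5 peak in each library, as the distance in nucleotides from the first base of the stop codon, with T24 in blue and T24R2 in orange. Negative values are coding sequence. The T24R2 bars begin at −521 to −250 nt and the T24 bars at −250 to 27 nt, so the ends meet at −250 nt. T24R2 summits lie at −196 to −69 nt, and 4 of 5 T24 summits lie past the coding sequence.

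HSPH1, the HSP110 that exchanges nucleotide on HSP70, had a CDS summit in its last exon of 2552 nt (chr13:31137352-31137603) in T24R2 replicates 2 and 5, at −146 and −151 nt from the stop codon and with 2.69- and 3.43-fold enrichment. No T24 library had a peak there, and 2 against 0 libraries had an exact Fisher p of 0.444. The gene's 3′UTR of 2345 nt, the longest of the members, held no summit.

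HSP90AA1, the stress-responsive cytosolic HSP90, was called in T24R2 only, at 3 CDS regions. In exon 5 (chr14:102084831-102085099) all 5 T24R2 libraries had a peak, with 1.72-, 2.86-, 1.78-, 2.11- and 1.92-fold enrichment in replicates 1 to 5, and no T24 library had one. These peaks were among the lowest of their lists in fold, at percentiles 0.0292 to 1.58, while −log10 q reached 25.1 in replicate 2 and was 2.51 in replicate 3. The exact Fisher p was 0.00794, the smallest that 5 against 5 libraries can give, with an adjusted p of 0.195, and 3.02% of all regions had this pattern against 1.05% with the opposite one. With equal list lengths 556 regions had this pattern and 497 the opposite one. At the gene level, 2.39% of protein-coding genes with a summit were called in every T24R2 and no T24 library. With −log10 q of at least 5, or with equal list lengths, the exon 5 region remained in 2 T24R2 libraries (exact Fisher p = 0.444), so the call in 5 libraries rests on peaks near the threshold.

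The other HSP90AA1 regions were also called in T24R2 only, each in a different part of its libraries. In exon 3 (chr14:102085830-102086390) T24R2 replicates 2 to 5 had 2.84-, 2.27-, 2.88- and 2.20-fold enrichment (exact Fisher p = 0.0476, adjusted p = 0.517), and in exon 10 (chr14:102082263-102082472) replicates 1, 2 and 5 had 1.75-, 2.61- and 1.91-fold (exact Fisher p = 0.167). Windows over the summit recur elsewhere in the genome for 2 of 4 peaks in exon 3 and 2 of 3 in exon 10, but for none of the 5 peaks in exon 5. HSP90AB1, the constitutive HSP90, had 1 peak in all lists, in the CDS of exon 6 (chr6:44250195-44250361) in T24R2 replicate 2 with 2.88-fold enrichment and a −log10 q of 22.9.

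DNAJB1, the J-domain protein that hands clients to stress-induced HSP70, was the most heavily peaked member, with 45 of the 104 member peaks in 6 regions, 4 of them called in all 10 libraries. The strongest lay in the 3′UTR (chr19:14515432-14516203, exon 3 of 3), with summits 63 to 163 nt past the stop codon. Its fold enrichment was 11.6, 7.87, 12.3, 13.6 and 13.0 in T24 replicates 1 to 5. In T24R2 it was 8.83, 9.77, 4.32, 9.74 and 8.82. All T24 values but that of replicate 2 lay above all T24R2 values. The means were 11.7 ± 2.26 (SD) in T24 and 8.30 ± 2.27 in T24R2, and the centred log2 difference was −0.62 ± 0.25 (SE). It did not pass adjustment (limma adjusted p = 0.254). The region was among the 14.1% of regions called in all 10 libraries whose limma p was under 0.05 before adjustment. Over those 9577 regions 0.533% were higher and 0.324% lower in T24R2 at an adjusted p under 0.05, and no member region was among them.

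This 3′UTR peak was wider in T24R2, at 570 to 693 bp against 421 to 540 bp, with no overlap between lines (difference 137 bp, exact permutation p = 0.00794, adjusted p = 0.0692). Every T24R2 peak was wider in 10.8% of the regions called in all 10 libraries, and the median difference over them was 80.2 bp. Its −log10 q values overlapped, from 16.4 to 42.6 in T24 and from 13.0 to 61.1 in T24R2. T24R2 replicate 3 had both the lowest fold enrichment and the summit furthest from the stop codon of the 5 T24R2 libraries.

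The CDS peaks of DNAJB1 stood in nearly the same place in every library. In exon 2 (chr19:14516533-14517133) all 10 summits fell between 463 and 483 nt from the start codon, with 7.05 ± 2.26-fold enrichment (SD, n = 5) in T24 and 5.71 ± 1.14-fold in T24R2 (log2 difference −0.36 ± 0.27 SE, limma adjusted p = 0.601). In exon 1 (chr19:14518153-14518446) summits fell 46 to 97 nt after the start codon. The 5′UTR of this transcript is only 48 nt long, and the called peak covered the start codon in 3 T24 and 5 T24R2 libraries. Fold enrichment there ranged from 3.69 to 12 in T24 and from 3.02 to 8.11 in T24R2, with a log2 difference of −0.44 ± 0.32 (SE, limma adjusted p = 0.586).

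Upstream of the MANE Select transcript, an exon of DNAJB1 transcripts with no annotated coding sequence (chr19:14526030-14526558) was called in all 10 libraries, at 7.02 ± 1.52-fold (SD, n = 5) in T24 and 5.55 ± 1.63-fold in T24R2 (log2 difference −0.45 ± 0.26 SE, limma adjusted p = 0.451). A 5′UTR exon of other DNAJB1 transcripts (chr19:14527698-14527843) was called in replicates 1 and 3 of each line, at 5.98- and 8.44-fold in T24 and 9.43- and 4.99-fold in T24R2. A distal 3′UTR peak (chr19:14514845-14515022) was called in T24R2 replicate 1 only, with 4.03-fold enrichment. In all 4 DNAJB1 regions called in every library the mean enrichment was lower in T24R2, but the regions belong to 1 gene and the same libraries, and none passed the test.

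BAG3, the co-chaperone that links HSP70 to small heat shock proteins and to autophagy, was the only member with 5′UTR summits on its chosen transcript. Its first exon (chr10:119651366-119651797) was called in all 10 libraries, with summits at −199 to −20 nt from the start codon in a 5′UTR of 296 nt. A 5′UTR summit in every library was found in 5.02% of the 5514 protein-coding genes with a summit in all 10 libraries, and in 1 of the 3 such members. Its fold enrichment was 4.39, 6.67, 6.73, 9.17 and 8.59 in T24 replicates 1 to 5. In T24R2 it was 7.07, 5.27, 8.68, 4.73 and 4.98. The lines overlapped almost completely, with means of 7.11 ± 1.88 (SD) and 6.15 ± 1.69, and the log2 difference was −0.30 ± 0.29 (SE, limma adjusted p = 0.712). Summits lay at −199 to −159 nt from the start codon in T24 replicates 2 to 5 and T24R2 replicates 3 and 5, and at −69 to −20 nt in T24 replicate 1 and T24R2 replicates 1, 2 and 4. The difference in position between lines did not pass the test (exact permutation p = 0.167), and the called peak reached over the start codon in 4 T24 and 3 T24R2 libraries. Whether m6A or m6Am gave these 5′UTR peaks was not tested.

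**Figure D4:**
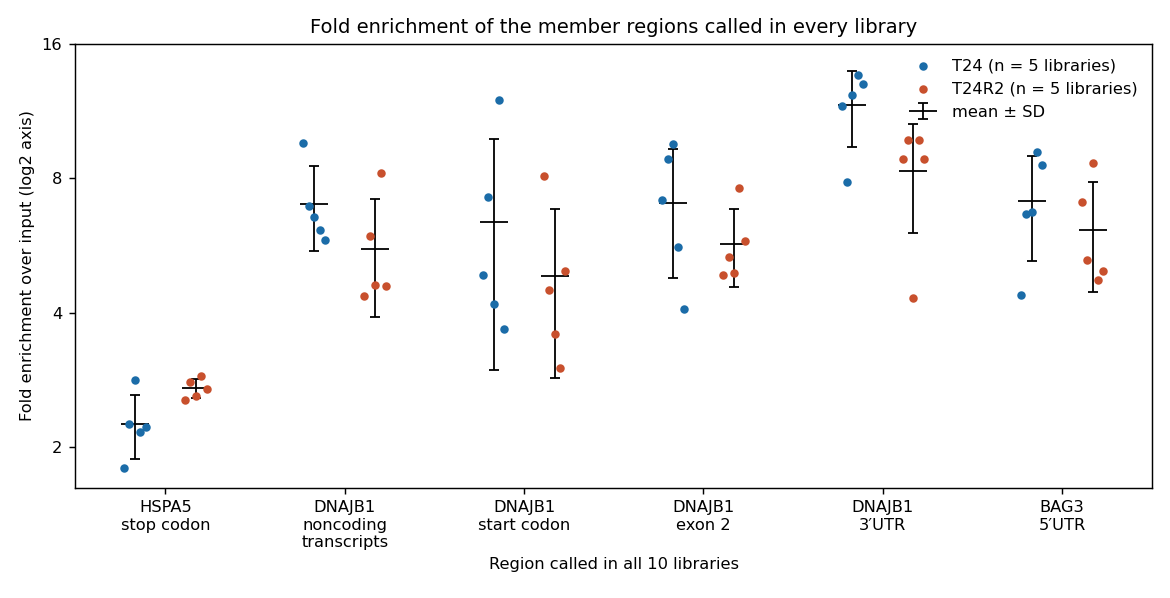
Fold enrichment over input, on a log2 axis, of the 6 member regions called in all 10 libraries, ordered by gene. Points are libraries, T24 in blue and T24R2 in orange, and black bars give the mean ± SD of 5 libraries. Means are lower in T24R2 at DNAJB1 and BAG3 and higher at HSPA5, the values of the lines overlap in every region, and HSPA5 lies lowest at 1.80 to 2.88.

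BAG3 also had a broad peak in its last coding exon (chr10:119676337-119677430), called in T24 replicates 1 to 4 and in all T24R2 libraries with summits at −410 to −62 nt from the stop codon. Its fold enrichment was 3.13, 2.85, 2.82 and 3.06 in T24 and 4.32, 7.51, 3.05, 4.91 and 3.29 in T24R2. T24R2 replicates 1, 2, 4 and 5 stood above all T24 values, while replicate 3 lay within them, and no limma test was run because T24 replicate 5 had no peak. The peak was 183 to 582 bp wide in T24 and 958 to 1019 bp wide in T24R2, without overlap, as in 11.0% of regions called in at least 4 libraries of each line. A further BAG3 peak in the CDS of exon 3 (chr10:119672258-119672546) was called in T24R2 replicates 3, 4 and 5 with 2.72-, 4.69- and 3.41-fold enrichment and in no T24 library (exact Fisher p = 0.167).

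Among 80 other genes of the chaperone network, in 9 lists, 47 had an exonic summit in some library and 18 (22.5%) in all 10, beside 51.1% and 27.5% of all protein-coding genes. None of their 105 regions passed the limma test in either direction, of 23 called in every library, and the median log2 difference of those 23 was −0.09 beside 0.02 over all regions. At an unadjusted exact Fisher p under 0.05, 7 regions (6.67%) were called more often in T24R2, beside 7.11% of all regions, and 0 more often in T24. By count alone 56 regions (53.3%) were called in more T24R2 libraries, beside 52.6% of all regions. In more T24 libraries there were 17 of the 105, beside 19.6% of all regions. The HSP90 family list held 2 genes, HSP90B1 and TRAP1, and not the members HSP90AA1 and HSP90AB1, which were called in T24R2 only. It was the only list with more regions on the T24 side. Of its 7 regions 1 was called in more T24R2 and 5 in more T24 libraries. The J-domain proteins had 19 and 3 of 35, and the unfolded protein response genes 16 and 2 of 28. The chaperonins had no summit in any of 10 genes, and HSPD1, HSPE1 and the CCT subunits belong to this list. Of the HSP90 co-chaperones 6 of 10 had a summit and 0 had it in all libraries. Of the J-domain proteins 15 of 17 had a summit, and of the unfolded protein response genes all 12 had a summit, with 6 and 5 of them in all libraries. Only HSPB6 of the 4 small heat shock proteins and only HSF4 of the 5 other heat shock factors and their partners had any, both named after the values were seen.

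The regions of this network with an unadjusted exact Fisher p under 0.05 were few. HSPA12A, a divergent HSP70, had a 3′UTR region (chr10:116672772-116673335) in all 5 T24R2 and no T24 libraries with 6.80- to 9.56-fold enrichment (exact Fisher p = 0.00794, adjusted p = 0.195) and a further region around its stop codon (chr10:116674557-116674999) in 4 T24R2 libraries. AHSA1 and CDC37, co-chaperones that activate HSP90 and bring it kinases, and the J-domain protein DNAJA1 each had a CDS region in 5 T24R2 and 1 T24 libraries, at 4.11-fold or less. DDIT3, the CHOP transcription factor of endoplasmic reticulum stress, had a region in 4 T24R2 and 0 T24 libraries at 3.16- to 7.70-fold. UNC45A, a myosin and HSP90 co-chaperone, had 1 exonic summit of 5.50-fold in a region of 4 T24R2 libraries that HDDC3 also overlaps, so that region cannot be given to either gene. The exact Fisher p of the last 6 regions was 0.0476 each, with an adjusted p of 0.517.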

How the data were processed

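The data were peak lists of 10 IP libraries of T24 and T24R2, grouped by sample titles. Per the submitters' processing notes and the study's methods, reads were aligned to hg38 (GRCh38) with STAR 2.7.0, uniquely mapped reads without duplicates were kept with SAMtools 1.10, and MACS2 3.0.0a6 called peaks of IP over input for each library at a fixed fragment extension with no shifting model. The score of each peak was deposited by the authors' peak caller and was not used. The fold enrichment, a ratio of IP over input, is the authors' value for each peak. The authors also deposited the q-value and the p-value as −log10, with a lowest −log10 q of 2.00. The authors' merged list of 43676 regions was used as deposited. Because local input sets fold enrichment, peaks on abundant transcripts can have a low fold with a high −log10 q.

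Peaks were assigned to genes by summit with GENCODE 44 exons and placed on the MANE Select transcript, or the Ensembl canonical one. The lists carry no strand, and no other gene's exon lay at a member summit. Sequences came from hg38. Regions called in all 10 libraries were compared on log2 of the highest fold enrichment, centred by each library's median, with limma 3.58.1 in R 4.3.3 (empirical Bayes with trend), T24R2 minus T24. Presence was tested with a two-sided Fisher's exact test, and positions, widths and percentiles with two-sided exact permutation tests over 252 assignments. All were adjusted by Benjamini-Hochberg over every region tested. The tests were tried on simulated data: with 9577 regions, limma called 49 of 100 regions changed by 1 and 95 of 100 changed by 2 on the log2 scale. All members were named, and genes of the wider lists were named when limma passed at an adjusted p under 0.05 or Fisher's test at an unadjusted p under 0.05. The members and lists were chosen with earlier results of these data known. Peaks on 104 alternate and unplaced contigs (0.775%) have no annotation here. The inputs and the reads were not analysed here.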

Additional observations from a re-analysis of the deposited data

Results flagged for a closer look

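Of 49 groups of 5 libraries checked with Dixon's criterion (critical value 0.71) 5 held a library that stood apart, and chance gives about 1 in 20. At the DNAJB1 3′UTR region, T24R2 replicate 3 had a fold enrichment of 4.32 against 8.82 to 9.77 in the other T24R2 libraries, and its summit lay 163 nt past the stop codon against 63 to 83 nt. Without that library the log2 difference of the region was −0.45 in place of −0.62 (limma adjusted p = 0.467). At the BAG3 5′UTR region, the summit of T24 replicate 1 lay at −1778 nt from the stop codon and those of the other T24 libraries at −1924 to −1904 nt. At the DNAJB1 exon of transcripts with no annotated coding sequence, T24 replicate 1 had a −log10 q of 13.5 against 6.72 to 8.41. The list of T24R2 replicate 5 held 33120 peaks against 22671 to 25603 in the other T24R2 lists.

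Outside the annotated chromosomes, 5 peaks lay on the HSPA1A copy and 8 on the HSPA1B copy of an alternate MHC contig, data that the rule for the members did not use. They were 13 of the 115 peaks on that contig.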

How the results depend on the processing

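The 6 member regions called in every library kept their direction without centring, with quantile normalization, with percentiles, with the block and without each library in turn. Under stricter thresholds only some had a value, 4 with −log10 q of at least 5, 4 with at least 4-fold enrichment, 3 with equal list lengths and 1 with −log10 q of at least 10, all in the same direction, and HSPA5 had none. With −log10 q as the measure DNAJB1 exon 2 reversed to 0.0484 (limma adjusted p = 0.954), and the cause was not tested. Sizes moved as single libraries were left out. HSPA5 ranged from 0.09 (without T24 replicate 1) to 0.24, BAG3 5′UTR from −0.48 (without T24R2 replicate 3) to −0.20 (without T24R2 replicate 4), DNAJB1 exon 1 from −0.68 (without T24R2 replicate 1) to −0.21 (without T24 replicate 4) and DNAJB1 exon 2 from −0.51 to −0.23 (without T24 replicate 2). No member region passed adjustment under any alternative that gave it a value. The replicate numbers did not pair the libraries (same-number correlations −0.04 to 0.12, with 1 of 5 numbers matching best with its own), and with the replicate number as a block 39 regions were higher and 26 lower in T24R2. No call for a member changed with the block. Over all regions, 51 higher and 31 lower became 94 and 201 with −log10 q, 24 and 18 with −log10 q of at least 5, 11 and 7 with at least 10, 20 and 10 with equal list lengths, and 0 and 0 with percentiles and exact permutation. Higher regions were 29 with at least 4-fold enrichment, and lower regions were 17 without centring. Leaving out single libraries gave 21 to 49 higher and 13 to 35 lower. Regions called in every T24R2 and no T24 library fell from 1320 to 640 with −log10 q of at least 10 and 556 with equal list lengths, and those of the opposite kind from 457 to 171 with −log10 q of at least 10 and 203 with 50% cover, while with equal list lengths they numbered 497. No region passed adjusted Fisher's tests in any alternative, while 4021 had an unadjusted exact p under 0.05. Members with a summit fell from 8 to 4 with at least 4-fold enrichment, and those with a summit in every library from 3 to 1 with −log10 q of at least 10 or equal list lengths. The mean 5′UTR share of member summits moved from 12.5% to 20.7% with −log10 q of at least 10. With no reads in the files, whether a weak peak was missed for depth was not tested.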
